A study of Homo sapiens with 4 samples.

Results

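The genes described here are 10 that encode or control the anaphase-promoting complex (APC/C) and separase. The 10 were chosen by name among the 18398 gene rows measured, with earlier results of these data known. They are CDC20, FZR1, UBE2C, UBE2S, FBXO5, PTTG1, ESPL1, CDC27, CDC16 and ANAPC11, and each of the 10 was present as 1 row and passed the filter on low values. RNA was sequenced from Huh1 and Huh7 cells, both established human hepatocellular carcinoma cell lines, after transfection with 15 nM of NCsiRNA, which has no endogenous target, or of CDCA8siRNA (the variant CDCA8-1siRNA), with 48 h of siRNA treatment per the study. CDCA8 encodes borealin, a subunit of the chromosomal passenger complex that corrects the attachment of chromosomes to the spindle. There was 1 library for each cell line and siRNA, 4 in all, so the spread between cultures of a group could not be measured. Both lines received the same siRNA against CDCA8, so effects of its sequence could not be told apart from loss of CDCA8.

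The APC/C is a ubiquitin ligase that ends mitosis by marking proteins for destruction. CDC20 activates it at the metaphase to anaphase transition, once the spindle checkpoint is satisfied, and FZR1 (CDH1) keeps it active from late mitosis through G1. Its destruction of securin, the product of PTTG1, frees separase, the product of ESPL1, which then cleaves cohesin and lets the sister chromatids part.

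The levels are RPKM, reads per kilobase of transcript and scaled to the number of reads, so they can be compared between genes. The libraries held 12197606 to 13384836 reads as recovered from the values. All 12 liver markers examined, among them ALB, HNF4A and KRT8, stood at 1 RPKM or more in every library, and their summed RPKM was 7537 with NCsiRNA and 6610 with CDCA8siRNA in Huh1 and 7379 and 5291 in Huh7. Of 7 markers of leukocytes, endothelium and fibroblasts, PTPRC and VWF were under 1 RPKM in all 4 libraries, while COL1A1 read 107 and 125 RPKM in Huh7 against 0.115 and 0.122 in Huh1. The macrophage marker CD68 was instead higher in Huh1, at 23.3 and 16.5 RPKM against 3.71 and 3.73 in Huh7, and LYZ read 11.1 and 23.4 RPKM in Huh7. The summed RPKM of these 7 was 24.3 and 18.4 in Huh1 and 125 and 158 in Huh7. The part of these shifts in the results was not tested. In bulk RNA, fewer cells of a type (such as cells in mitosis) and less RNA per cell cannot be told apart. The siRNA target CDCA8 read 24.1 and 5.86 RPKM in Huh1 and 51.5 and 7.36 RPKM in Huh7, so that 24.3% and 14.3% of its control level was left.

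Several of these genes are known to be transcribed mainly in late cell cycle, through a promoter element called CHR (cell cycle genes homology region) that often lies near CCAAT boxes. The start regions are shown for the 4 genes in which both letters were found upstream and close to the start. ANAPC11 stands beside them as a core subunit without the CHR letters, though CDC27, also a core subunit, held them after its start. The sequences are from RefSeq (GRCh38.p14), run from 120 bases before the start to 50 bases after it in the direction of transcription, and have CHR letters (TTTGAA or TTTAAA) and CCAAT, or their reverse complements, in capitals. The regions are chr1:43358861-43359030 (+ strand) for CDC20, chr6:152982992-152983161 (- strand) for FBXO5, chr5:160421735-160421904 (+ strand) for PTTG1, chr12:53268179-53268348 (+ strand) for ESPL1 and chr17:81891603-81891772 (+ strand) for ANAPC11.
CDC20: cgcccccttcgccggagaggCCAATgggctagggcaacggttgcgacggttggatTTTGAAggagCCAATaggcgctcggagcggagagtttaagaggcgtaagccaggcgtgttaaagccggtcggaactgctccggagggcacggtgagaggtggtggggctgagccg
FBXO5: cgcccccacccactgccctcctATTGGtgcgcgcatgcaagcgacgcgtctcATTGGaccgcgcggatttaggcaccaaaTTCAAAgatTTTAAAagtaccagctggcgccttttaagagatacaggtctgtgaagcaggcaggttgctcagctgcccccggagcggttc
PTTG1: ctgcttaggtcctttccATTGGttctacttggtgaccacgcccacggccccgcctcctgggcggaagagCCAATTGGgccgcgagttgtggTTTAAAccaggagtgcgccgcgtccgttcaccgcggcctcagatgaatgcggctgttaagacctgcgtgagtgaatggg
ESPL1: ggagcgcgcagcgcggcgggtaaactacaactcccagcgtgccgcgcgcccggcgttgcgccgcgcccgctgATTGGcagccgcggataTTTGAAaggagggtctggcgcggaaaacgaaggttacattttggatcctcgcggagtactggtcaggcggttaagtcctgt
ANAPC11: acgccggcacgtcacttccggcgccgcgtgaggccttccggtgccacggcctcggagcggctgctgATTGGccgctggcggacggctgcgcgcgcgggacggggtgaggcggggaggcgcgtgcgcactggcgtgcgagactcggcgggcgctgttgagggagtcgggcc

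Within the bases shown, the CHR letters of CDC20 began 65 bases before the start, between CCAAT at 100 and 55 bases before it. FBXO5 held both CHR forms, at 40 and 31 bases before the start, and reversed CCAAT at 98 and 68 bases before it. PTTG1 had TTTAAA at 29 bases before the start and a palindromic pair of CCAAT boxes beginning at 51 and 48 bases before it, which overlap by 2 letters, and a reversed CCAAT at 103 bases before it. In ESPL1 TTTGAA stood at 31 bases and a reversed CCAAT at 48 bases before the start. ANAPC11 held 1 reversed CCAAT, at 54 bases before the start. RefSeq gives windows of 250 bases before to 50 after each start, and the 9 genes with any have 15 in all, searched on both strands. UBE2C had no window here, so its start region was not searched. Of the genes not shown, the core subunit CDC27 held TTTAAA at 40 bases after the start and a reversed CCAAT far upstream. FZR1 held TTTGAA upstream of the bases printed for the other genes, and no CCAAT. UBE2S and CDC16 held CCAAT without CHR letters. The CHR letters thus did not divide the core subunits from the other genes. Of these 15 windows, which overlap in PTTG1 and ANAPC11, 7 held CHR letters, 11 held CCAAT and 6 held both. Over all 35116 RefSeq windows the shares were 24.0%, 34.6% and 9.27%. Where a gene has several starts, the one shown is nearest to that of the transcript in the files, and the other window of FBXO5 held neither CHR letters nor CCAAT. A match is a description of the letters and was not tested as a binding site.

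With CDCA8siRNA, the joint test over both cell lines called 2 of the 10 genes lower, the inhibitor FBXO5 and the E2 enzyme UBE2C. It called no gene of the 10 higher, beside 4.21% of all genes fitted called lower and 6.03% higher. The UBE2C call lay at the threshold (limma, adjusted p = 0.0458). Without the filter on low values or without the cell line term, no gene at all was called. FBXO5 was left at 73.0% of its control level in Huh1 and at 58.8% in Huh7, and UBE2C at 79.5% and 81.9%. The directions were alike in both lines for 9 of the 10 genes. CDC20, UBE2C, FBXO5, PTTG1, ESPL1 and CDC27, 6 of the 10, were lower in both lines, against 30.5% of the 10357 genes fitted. FZR1, CDC16 and ANAPC11, 3 of the 10, were higher in both, against 39.0% of genes fitted. As the 10 were chosen with earlier results of these data known, these shares are a description and not a test. FZR1 in Huh1 moved from 0.02 to -0.01 on the log2 scale under quantile normalization. By the counting of reads alone, FZR1 and ANAPC11 in both lines, ESPL1 in Huh1 and UBE2S in Huh7 lay within 1 SD of 0.

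The joint test is limma on log2(RPKM + 1) of the 4 libraries, with a term for the cell line and Benjamini-Hochberg adjustment of the p-values over all genes fitted. It sets the mean difference of both lines against a spread. That spread draws mostly on all genes fitted (8.29 prior degrees of freedom) and less on the gene's own disagreement between lines (1 residual degree of freedom). The p-values do not measure the spread between cultures. The joint test called 4.21% of genes lower and 6.03% higher (adjusted p under 0.05). Within a line no test was possible, and a gene was counted at 1.5-fold or 2-fold on the log2(RPKM + 1) scale. At least 1.5-fold lower were 1.27% of genes in Huh1 and 3.42% in Huh7, and 2.48% and 5.30% were that much higher. FBXO5 in Huh7 was the 1 case among the 10 genes that reached 1.5-fold, and 0 of them reached 2-fold, which 0.494% of genes in Huh1 and 1.57% in Huh7 did. The median log2 difference of the 10 genes was -0.13 in Huh1 and -0.13 in Huh7, beside 0.02 and 0.03 over all genes.

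**Figure D1:**
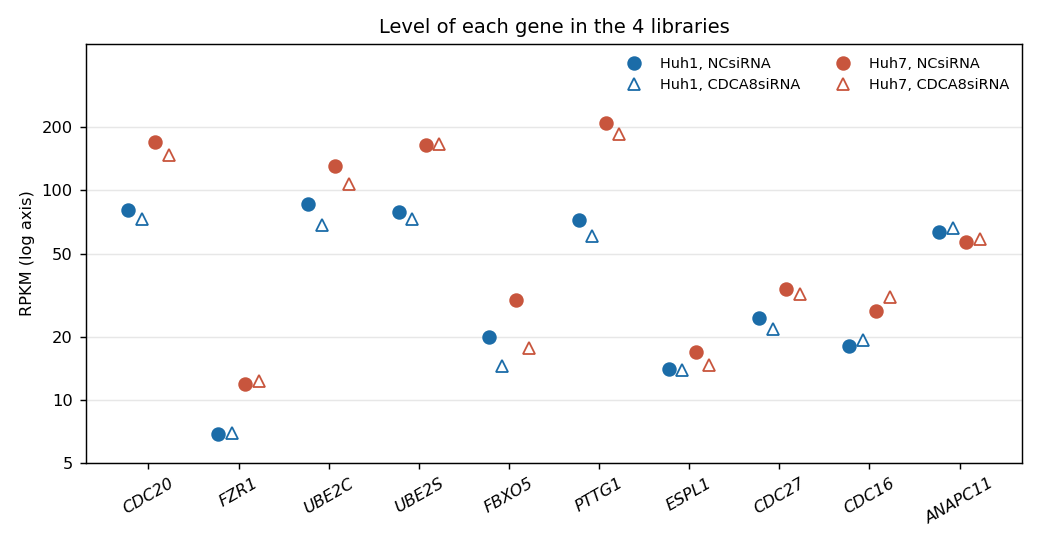
Level of each of the 10 genes in RPKM (log axis) in the 4 libraries, 1 point per library, with circles for NCsiRNA and triangles for CDCA8siRNA. CDC20, UBE2C, UBE2S, PTTG1 and ANAPC11 sit above 50 RPKM in all 4 libraries, FZR1 is lowest in each, and FBXO5 has the widest step between circle and triangle in both lines.

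Of the coactivators, CDC20 (chromosome 1, 43358955 to 43363203, + strand, GENCODE v29 on GRCh38, as for all positions below) recruits mitotic substrates to the APC/C and is itself the target of the spindle checkpoint. It read 81.0 RPKM in Huh1 with NCsiRNA, 73.0 in Huh1 with CDCA8siRNA, 170 in Huh7 with NCsiRNA and 148 in Huh7 with CDCA8siRNA. The Huh7 libraries were both above the Huh1 libraries, and within each line the CDCA8siRNA library was the lower. The log2 difference was -0.15 ± 0.049 in Huh1 and -0.20 ± 0.036 in Huh7, where ± is here and below the SD that counting of reads alone gives. Both differences were over 2 counting SDs from 0, yet the joint test did not call CDC20 (limma, log2 difference -0.18, SE 0.081, adjusted p = 0.208).

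FZR1 (chromosome 19, 3506273 to 3538330, + strand) replaces CDC20 on the APC/C when mitosis ends. It was the lowest of the 10 genes in every library, at 6.88 and 6.98 RPKM in Huh1 and 11.9 and 12.3 RPKM in Huh7 with NCsiRNA and CDCA8siRNA. The siRNAs differed by less than 1 counting SD in each line, with log2 differences of 0.02 ± 0.098 and 0.05 ± 0.081. The limma estimate was 0.03 (SE 0.108, adjusted p = 0.881). CDC20 stood 11.8 ± 0.701 times above FZR1 in Huh1 with NCsiRNA and 10.5 ± 0.630 times with CDCA8siRNA, and 14.3 ± 0.669 and 12.0 ± 0.556 times in Huh7. The ratio was lower with CDCA8siRNA by 1.38 combined counting SDs in Huh1, under the 2 SDs used elsewhere, and by 2.67 in Huh7.

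UBE2C (chromosome 20, 45812576 to 45816957, + strand) is the E2 enzyme that places the first ubiquitins on APC/C substrates. It read 86.1 and 68.5 RPKM in Huh1 and 131 and 107 RPKM in Huh7 with NCsiRNA and CDCA8siRNA. The log2 difference was -0.33 ± 0.088 in Huh1 and -0.29 ± 0.074 in Huh7, a difference between lines well within counting error, and limma gave -0.31 (SE 0.082, adjusted p = 0.0458). That call lies at the threshold and was lost after upper quartile scaling (limma, adjusted p = 0.0511) and without a mean-variance trend (0.112). It was also lost without the filter on low values (0.260) and without the cell line covariate (1.00), where no gene was called, CDCA8 included. Over all 7 alternatives the adjusted p ran from 0.0230 to 1.00. UBE2C has 5 annotated pseudogenes (UBE2CP1 to UBE2CP5), and how the authors assigned reads shared with such copies is not given in the sources used here.

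UBE2S (chromosome 19, 55399745 to 55407777, - strand) is the E2 enzyme that extends the chains. It read 79.0 and 72.7 RPKM in Huh1 and 164 and 167 RPKM in Huh7. It was lower in Huh1 (log2 difference -0.12 ± 0.041) and within 1 counting SD of 0 in Huh7 (0.02 ± 0.029, or 0.08 after quantile normalization), the only member with unlike signs. The joint test did not call it (limma, -0.05, SE 0.083, adjusted p = 0.766). The ratio of UBE2S to UBE2C was 0.917 ± 0.042 in Huh1 with NCsiRNA, 1.06 ± 0.054 in Huh1 with CDCA8siRNA, 1.25 ± 0.047 in Huh7 with NCsiRNA and 1.55 ± 0.063 in Huh7 with CDCA8siRNA. With CDCA8siRNA the ratio was higher by 2.13 combined counting SDs in Huh1 and 3.80 in Huh7.

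FBXO5 (chromosome 6, 152970519 to 152983579, - strand) encodes EMI1, which holds the APC/C inactive through S phase and G2 and lets cyclins accumulate. It read 19.95 RPKM in Huh1 with NCsiRNA and 14.6 with CDCA8siRNA, and 29.97 and 17.6 RPKM in Huh7. These values rest on 402 to 765 reads per library. Both CDCA8siRNA libraries were below both NCsiRNA libraries, which held for no other member. The log2 difference was -0.43 ± 0.089 in Huh1 and -0.73 ± 0.082 in Huh7, the latter lying 0.30 ± 0.121 lower. The joint test gave a log2 difference of -0.58 (limma, SE 0.110, adjusted p = 0.0136). The call was lost without the filter on low values (limma, adjusted p = 0.259) and without the cell line covariate (1.00), where no gene was called, CDCA8 included. Over the 7 alternatives the adjusted p ran from 0.000174 to 1.00. CDC20 stood 4.06 ± 0.196 times above FBXO5 in Huh1 with NCsiRNA and 5.02 ± 0.280 times with CDCA8siRNA. In Huh7 the ratio was 5.68 ± 0.227 and 8.38 ± 0.422. This ratio of transcripts was higher with CDCA8siRNA in each line, although CDC20 was itself lower, and APC/C activity was not measured here.

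**Figure D2:**
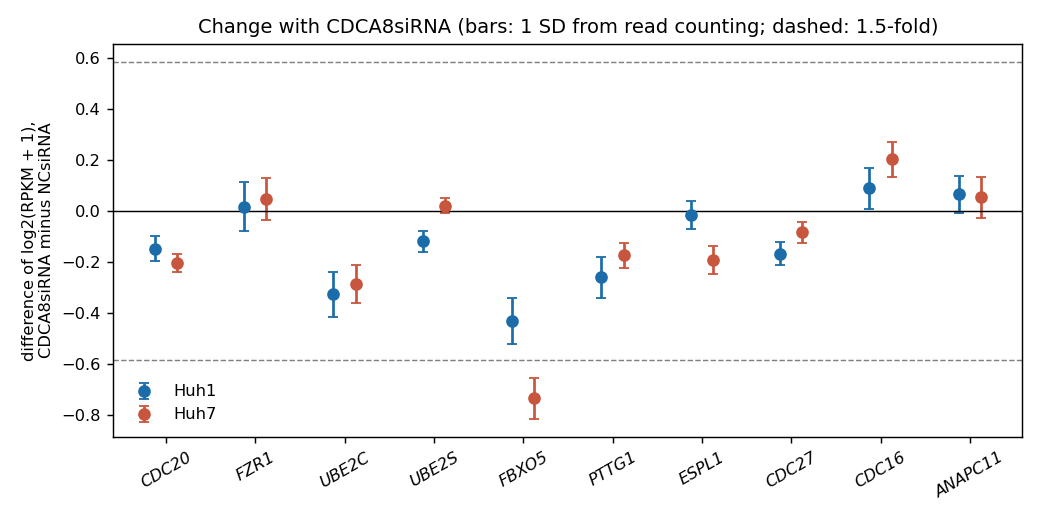
Difference of log2(RPKM + 1) between CDCA8siRNA and NCsiRNA for each gene in Huh1 and Huh7, with bars of 1 SD from read counting and dashed lines at 1.5-fold. FBXO5 in Huh7, at -0.73, is the 1 point past a dashed line, UBE2C lies at -0.33 and -0.29, and FZR1 and ANAPC11 have bars that reach 0 in both lines.

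PTTG1 (chromosome 5, 160421822 to 160428744, + strand) encodes securin, the inhibitor and chaperone of separase. It read 72.6 and 60.5 RPKM in Huh1 and 209 and 185 RPKM in Huh7 with NCsiRNA and CDCA8siRNA. It was lower with CDCA8siRNA in both lines, at 83.3% and 88.7% of the control level, by log2 differences of -0.26 ± 0.080 and -0.17 ± 0.049, but did not pass the joint test (limma, -0.22, SE 0.081, adjusted p = 0.128). PTTG1 has near-identical annotated copies (PTTG2, PTTG3P and PTTG4P), and its reads came out in fractions of 0.2, so its level is uncertain by whatever share of reads was divided among copies.

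ESPL1 (chromosome 12, 53268299 to 53293643, + strand) encodes separase, the protease that opens the cohesin ring. It read 14.1 and 13.9 RPKM in Huh1 and 16.9 and 14.7 RPKM in Huh7. The siRNAs differed by less than counting error in Huh1 (log2 difference -0.01 ± 0.054) and by over 2 counting SDs in Huh7 (-0.19 ± 0.054). The 2 differences were 0.18 ± 0.076 apart, and the joint test did not call ESPL1 (limma, -0.10, SE 0.105, adjusted p = 0.584). Securin transcript exceeded separase transcript 5.17 ± 0.245 times in Huh1 with NCsiRNA and 4.35 ± 0.221 times with CDCA8siRNA. In Huh7 the ratio was 12.3 ± 0.441 and 12.6 ± 0.481, higher than in Huh1 under either siRNA, and the siRNAs differed there by less than 1 counting SD.

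The core subunits did not pass the test in either direction. CDC27 (APC3; chromosome 17, 47117703 to 47189422, - strand) and CDC16 (APC6; chromosome 13, 114234887 to 114272723, + strand) are scaffold subunits with tetratricopeptide repeats. CDC27 binds the coactivators. CDC27 read 24.7 and 21.9 RPKM in Huh1 and 33.9 and 32.0 RPKM in Huh7, lower with CDCA8siRNA by log2 differences of -0.17 ± 0.046 and -0.08 ± 0.041 (limma, -0.12, SE 0.095, adjusted p = 0.457). CDC27 has many annotated pseudogenes, and its values did not resolve into whole reads at any length tried, so its level and counting error are uncertain. CDC16 read 18.1 and 19.4 RPKM in Huh1 and 26.7 and 30.9 RPKM in Huh7, higher by 0.09 ± 0.081 and 0.20 ± 0.070 (limma, 0.15, SE 0.098, adjusted p = 0.387). Only the Huh7 difference of CDC16 exceeded 2 counting SDs.

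ANAPC11 (chromosome 17, 81890790 to 81900991, + strand) is the RING subunit that receives the E2 enzymes. It was the most abundant of the 3 core members, at 63.4 and 66.4 RPKM in Huh1 and 56.7 and 58.9 RPKM in Huh7. The siRNAs differed by no more than 1 counting SD in each line, with log2 differences of 0.07 ± 0.072 and 0.05 ± 0.080 (limma, 0.06, SE 0.086, adjusted p = 0.705).

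Of the 10 genes, 8 were higher in Huh7 than in Huh1 and 0 lower by the cell line term of the same limma fit (adjusted p under 0.05), where 39.1% of genes were called higher in Huh7 and 28.7% lower. PTTG1 differed most, standing 2.88 times higher in Huh7 with NCsiRNA and 3.06 times with CDCA8siRNA (limma, log2 difference 1.56). UBE2S was 2.08 and 2.29 times higher, CDC20 2.10 and 2.02 times, FZR1 1.73 and 1.77 times, UBE2C 1.52 and 1.57 times. CDC16 was 1.47 and 1.59 times higher and CDC27 1.37 and 1.46 times. FBXO5 was 1.502 times higher with NCsiRNA and 1.21 times with CDCA8siRNA, and its call (limma, log2 difference 0.41, adjusted p = 0.0079) was lost without the siRNA term in the fit (adjusted p = 0.274, with a range of 0.0072 to 0.274 over 7 alternatives). ESPL1, at 1.21 and 1.06 times, was not called (limma, adjusted p = 0.190). ANAPC11 was the only member below 1, at 0.894 and 0.887 times the Huh1 level (limma, adjusted p = 0.116), and after upper quartile scaling it was called lower in Huh7 (adjusted p = 0.0437, with a range of 0.0437 to 0.206 over 7 alternatives).

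**Figure D3:**
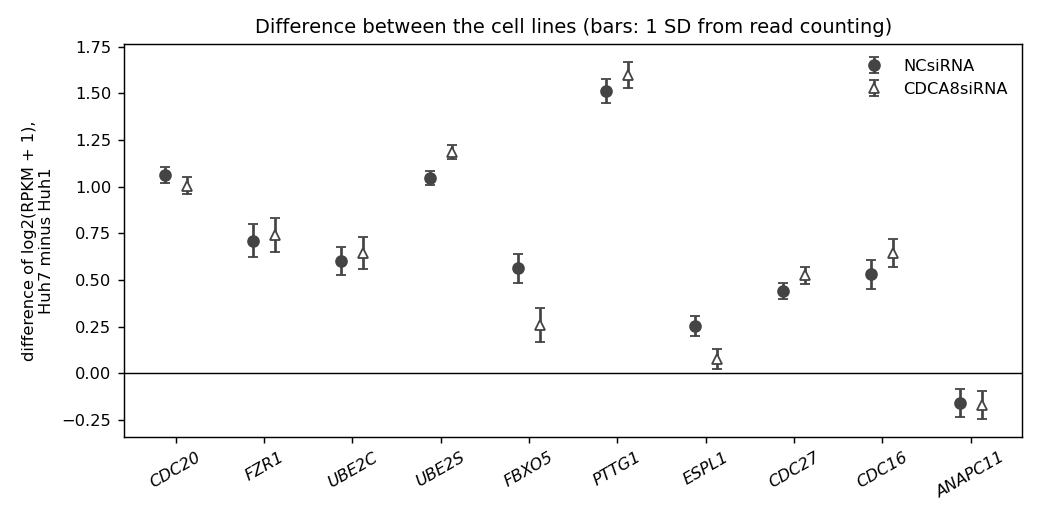
Difference of log2(RPKM + 1) between Huh7 and Huh1 for each gene, with circles for NCsiRNA, triangles for CDCA8siRNA and bars of 1 SD from read counting. PTTG1, UBE2S and CDC20 lie at about 1 or above under both siRNAs, ANAPC11 lies below 0, and FBXO5 is nearer to 0 with CDCA8siRNA than with NCsiRNA.

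In Huh1 with NCsiRNA the order of levels was UBE2C, CDC20, UBE2S, PTTG1, ANAPC11, CDC27, FBXO5, CDC16, ESPL1 and FZR1. From UBE2C down to PTTG1 each gene differed from its neighbour by less than 2 counting SDs, as did FBXO5 from CDC16, and the widest gap, a log2 ratio of 1.36, lay between ANAPC11 and CDC27. In Huh7 with NCsiRNA the order was PTTG1, CDC20, UBE2S, UBE2C, ANAPC11, CDC27, FBXO5, CDC16, ESPL1 and FZR1, where CDC20 and UBE2S were the only neighbours within 2 counting SDs. With CDCA8siRNA, FBXO5 ranked below CDC16 in both lines. Among all genes of the library, FBXO5 stood at the percentiles 75.7 and 68.3 in Huh1 and 82.6 and 72.1 in Huh7 with NCsiRNA and CDCA8siRNA, while PTTG1 stayed at 93.5 and 92.1 in Huh1 and 98.3 and 98.1 in Huh7.

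The wider machinery was counted from 5 lists of 5 to 20 genes, all of which were fitted. The lists too were chosen with earlier results of these data known, so their counts are a description and not a test. Among 14 core subunits of the APC/C, 0 were called lower and 0 higher (limma, adjusted p under 0.05), beside 4.21% and 6.03% of all genes fitted. At an unadjusted p under 0.05 (limma) were 3 of the 14, beside 2694 of the 10357 genes fitted. The median log2 difference of the 14 was -0.03 beside 0.03 over all genes fitted. Of the core subunits that are not among the 10, ANAPC10, which helps to hold substrates, read 7.83 and 5.33 RPKM in Huh1 and 12.0 and 9.58 RPKM in Huh7 (limma, adjusted p = 0.0624). ANAPC13, a small structural subunit, read 39.9 and 46.1 RPKM in Huh1 and 58.2 and 79.4 RPKM in Huh7 (adjusted p = 0.0640). CDC26, which stabilizes CDC16, had a limma log2 difference of -0.25 (adjusted p = 0.144), and C11orf51 (ANAPC15), which takes part in turnover of the checkpoint complex, one of 0.15 (adjusted p = 0.352). The core subunits thus lay on both sides of 0.

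Among 5 coactivators and E2 enzymes, UBE2C was the 1 called lower and 0 were called higher, beside 4.21% and 6.03% of all genes fitted, and the median was -0.13. UBE2D1, an alternative initiating E2, was not called (limma, log2 difference -0.13, adjusted p = 0.489). Of 10 inhibitors and checkpoint genes, 3 were called lower and 0 higher, beside 4.21% and 6.03% of all genes fitted, and the median was -0.12 beside 0.03. Besides FBXO5 these were MAD2L1BP (p31comet), which turns off the checkpoint protein MAD2, and BUB3, which brings checkpoint kinases to kinetochores. MAD2L1BP read 17.2 and 12.2 RPKM in Huh1 and 26.2 and 16.9 RPKM in Huh7 (limma, log2 difference -0.53, adjusted p = 0.0143). BUB3 read 73.6 and 59.3 RPKM in Huh1 and 89.2 and 64.6 RPKM in Huh7 (limma, -0.38, adjusted p = 0.0277). The list holds factors that restrain the APC/C and factors that release it, MAD2L1BP among the latter. BUB1 (limma, -0.30, adjusted p = 0.114) and MAD1L1 (0.25, adjusted p = 0.176) did not pass.

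**Figure D4:**
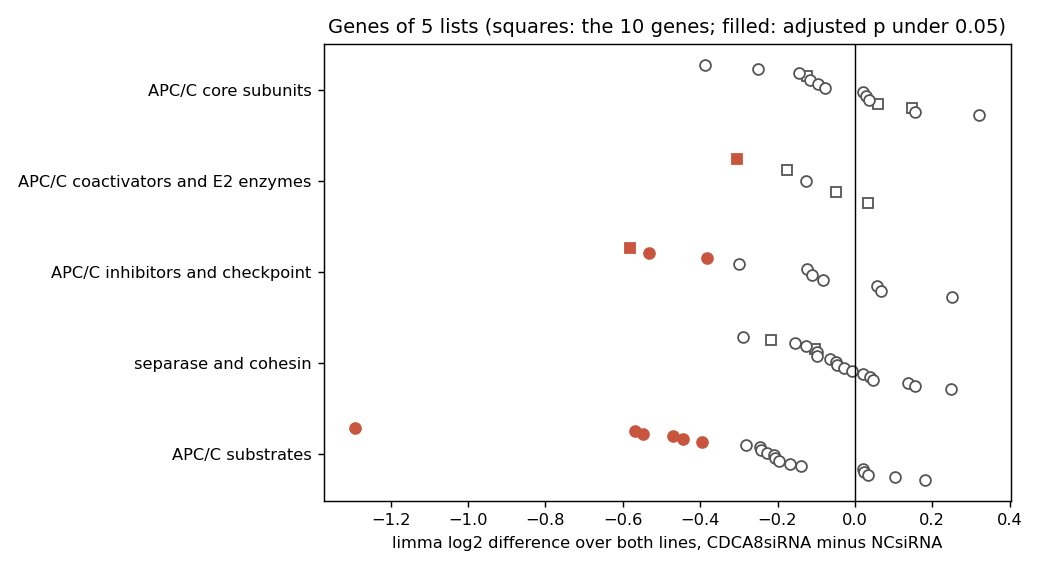
limma log2 difference over both cell lines, CDCA8siRNA minus NCsiRNA, for each gene of 5 lists (squares are the 10 genes, circles other genes, filled symbols an adjusted p under 0.05). Filled symbols lie left of 0. They number 1 of 5 coactivators and E2 enzymes, 3 of 10 inhibitors and checkpoint genes and 6 of 20 substrates. There are 0 among the 14 core subunits and the 18 separase and cohesin genes. Over all genes fitted, 4.21% were called lower and 6.03% higher.

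Among 18 genes of separase and cohesin, which include PTTG1 and ESPL1, 0 were called lower and 0 higher (limma), beside 4.21% and 6.03% of all genes fitted. At an unadjusted p under 0.05 (limma) were 3 of the 18, beside 2694 of the 10357 genes fitted. The median of the 18 was -0.05. The cohesin ring subunit SMC1A had the largest difference (limma, log2 difference -0.29, adjusted p = 0.0820). STAG2 (0.25, adjusted p = 0.147) and STAG1 (0.16, adjusted p = 0.375), the alternative subunits that bind the ring, and RAD21 (-0.16, adjusted p = 0.274), the subunit that separase cleaves, did not pass either. Of 20 proteins that the APC/C marks for destruction, 6 were called lower at the RNA level and 0 higher, beside 4.21% and 6.03% of all genes fitted, with a median of -0.22 beside 0.03. They were NUSAP1, CDC25A, PLK1, RRM2, SKP2 and AURKB. NUSAP1, a microtubule-bundling protein of the spindle, read 37.7 and 17.4 RPKM in Huh1 and 95.3 and 32.8 RPKM in Huh7, a larger step than in any of the 10 genes (limma, -1.29, adjusted p = 0.00087). The phosphatase CDC25A (limma, -0.57, adjusted p = 0.0112), the mitotic kinase PLK1 (-0.55, adjusted p = 0.0094) and the ribonucleotide reductase subunit RRM2 (-0.47, adjusted p = 0.0205) followed. These limma calls carry the same loss without the filter or the cell line covariate, where no gene is called.

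For the 3 members with the largest limma siRNA estimates, the genes with the nearest pattern were sought among all genes fitted, by Euclidean distance over the siRNA difference in Huh1, that in Huh7 and the difference between lines with NCsiRNA. Nearest to FBXO5 were EFCAB7 (distance 0.0859), RAB2B (0.0942) and CCNK (0.109), and CCNK also had a like level, at 20.5, 14.8, 28.8 and 17.5 RPKM in the order of libraries used above. Nearest to UBE2C were HLA-B (0.0502), SYT15 (0.0604) and HMGN3 (0.0625). Nearest to PTTG1 were the mitotic kinase NEK2 (0.0638), SNX5 (0.0684) and PIGA (0.102). The distances rest on 4 libraries, and in SYT15, HLA-B and EFCAB7, at 0.746 to 6.03 RPKM, on low levels and so on few reads. PIGA was also low in Huh1, at 4.33 and 3.43 RPKM.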

How the data were processed

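The authors deposited RPKM values per RefSeq transcript, deduced from the values, whose low ones are multiples of 1 read. The submitters' processing notes name CASAVA 1.8.2, TopHat2 2.0.9 and hg19. The counter, the annotation and any filter are not given in the sources used here. Libraries were assigned from their labels, and the dose and time come from the study's methods.

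Differences were taken on log2(RPKM + 1), which understates changes of low genes, for genes that reached 1 RPKM in 1 or both libraries of a line. limma 3.58.1 (lmFit, eBayes with trend, R 4.3.3) was fitted to all 4 libraries with terms for cell line and siRNA, over 10357 genes, with 1 residual and 8.29 prior degrees of freedom. The resampling ANOVA of the study was not repeated, as its design is not described. Python 3.11.15, numpy 2.4.6 and pandas 2.3.3 did the rest.

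Reads behind a gene were recovered by finding the transcript length that made its 4 values whole reads (tolerance 0.004), which succeeded for 6 of the 10 genes. Multiples of 0.5 reads resulted for FBXO5 and finer fractions for PTTG1 and CDC16, and for CDC27 the GENCODE length was used. Counting SDs follow from these reads and cover counting error only. PCR duplicates were not marked, and no count test was run. The steps were run on simulated data with planted 2-fold changes, alike in both lines. Smaller planted changes, of the size seen in the 10 genes, were not simulated.

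The 10 genes and the lists were chosen with earlier results of these data known. Named beside the 10 genes and CDCA8 were up to 4 genes per list with the largest limma siRNA estimate and the 3 genes nearest to each of 3 members. SKP2 and AURKB were named after their values were seen. The alternatives were a pseudocount of 0.1 RPKM, no filter, a minimum of 5 RPKM, quantile normalization, upper quartile scaling, limma without a trend and limma without the cell line or the siRNA term.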

Additional observations from a re-analysis of the deposited data

Results flagged for a closer look

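UBE2S was the 1 gene of the 10 whose differences between CDCA8siRNA and NCsiRNA had opposite signs in the 2 cell lines, -0.12 ± 0.041 in Huh1 and 0.02 ± 0.029 in Huh7 on the log2(RPKM + 1) scale (± counting SD). After quantile normalization the values were -0.11 and 0.08. The log2 difference in Huh7 was 0.14 above that in Huh1. The difference between the lines was not tested, since there was 1 library per group.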

How the results depend on the processing

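The term for the cell line already compares the siRNAs within lines. No further pairing by replicate could be fitted, and no library could be left out, because there was 1 library per group and the labels give no replicate numbers. The 10 genes kept their direction in the joint siRNA fit under each alternative run. Genes at least 1.5-fold lower in Huh1 numbered 266 in place of 139 with a pseudocount of 0.1 RPKM and those higher 517 in place of 271. In Huh7 those higher numbered 981 with that pseudocount and 405 with a minimum of 5 RPKM, in place of 613. limma called 436 genes lower, which became 755 after quantile normalization and 267 without a trend. Without the filter on low values limma called 0 genes lower and 0 higher (2440 at an unadjusted p under 0.05), and without the cell line it also called 0 and 0 (89 at an unadjusted p under 0.05), in place of 436 and 625. Of the 10 genes, 2 were called lower, which became 1 after upper quartile scaling (FBXO5), 1 without a trend (FBXO5), 0 without the filter and 0 without the cell line. In the cell line comparison 1 of the 10, ANAPC11, became called lower in Huh7 after upper quartile scaling, in place of 0. The cause of these changes was not tested. Scaling moved the median of all genes by under 0.05 on the log2 scale. Depth sets the counting SDs of the log2 differences, which ran from 0.029 (UBE2S in Huh7) to 0.098 (FZR1 in Huh1), and the spread between cultures was not measured.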
